A study of Mus musculus with 2 samples.

Results

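miR-193b and miR-365 are a pair of mouse microRNAs (miRNAs) that lie next to each other in the genome and have been tied to the choice between a brown adipocyte and a muscle cell. Their members here are 3 miRNA precursors, the hairpins that are cut into mature miRNAs: mmu-mir-193b, mmu-mir-365-1 and mmu-mir-365-2. They were chosen by name from the 1187 precursors listed, and all 3 were found in both libraries. Small RNA was sequenced from hindlimb muscle of mice, 1 day after the femoral artery had been removed by surgery to make the limb ischemic. The hypercholesterolemic library (HC) came from ApoE-/- mice, which lack apolipoprotein E and which the series' design text places on a high fat diet. The normocholesterolemic library (NC) came from C57Bl/6 control mice, for which no diet is named. Both groups were ischemic, and neither includes an unoperated limb. Each group held 1 library, and how many mice went into it is not stated in the labels, so no spread between animals could be measured and no test was run. Genotype and diet cannot be told apart, and the loss of Apoe could not be checked in miRNA counts.

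A mature miRNA guides Argonaute proteins to messenger RNAs, mainly through its seed, the bases 2 to 8 counted from the 5′ end. In cultured mouse brown preadipocytes, miR-193b and miR-365 rise during differentiation, partly through Prdm16, a transcriptional regulator of brown fat. Blocking them there impairs the adipocyte programme, while adding miR-193b to mouse myoblasts turns them toward brown adipocytes. Mice that lack miR-193b and miR-365-1 were later found to form brown fat, so the requirement in the animal is debated. Brown adipocytes and skeletal muscle share precursor cells that express Myf5. No miRNA here is specific to brown fat, and the tissue was muscle, so the tie to brown fat is background and the counts do not show that brown adipocytes were present.

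The mature sequences show why the members cannot all be counted apart. They are given 5′ to 3′ from the RefSeq table for GRCm38.p6, the assembly of mm10, with the seed in capitals:

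miR-193b-3p: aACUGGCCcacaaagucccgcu

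miR-193a-3p: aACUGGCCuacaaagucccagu

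miR-365-3p: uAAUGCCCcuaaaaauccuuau

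miR-365-1-5p: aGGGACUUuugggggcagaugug

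miR-365-2-5p: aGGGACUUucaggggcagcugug

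miR-193b-3p and miR-193a-3p have the same seed and are the only 2 of the table's 1679 mature miRNA names with it. They are identical at 19 of 22 bases. Counted from 1 at the 5′ end, with the miR-193a-3p base first, the differences are U9C, A20G and G21C. The miR-365-3p sequence is the same for both hairpins, and no other mature miRNA in the table has its seed. Only the 5p arms separate the copies, at 3 of 23 bases (C10U, A11G and C19A, with the miR-365-2-5p base first). A read of miR-365-3p therefore fits mir-365-1 and mir-365-2 equally well.

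The hairpins carry both arms, shown here in capitals, so that the length and the flanks of the members can be compared:

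mir-193b: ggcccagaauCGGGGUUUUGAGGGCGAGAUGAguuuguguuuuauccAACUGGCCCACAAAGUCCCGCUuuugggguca

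mir-365-1: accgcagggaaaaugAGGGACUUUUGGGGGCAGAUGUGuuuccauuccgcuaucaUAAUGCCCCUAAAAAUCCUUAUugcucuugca

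mir-365-2: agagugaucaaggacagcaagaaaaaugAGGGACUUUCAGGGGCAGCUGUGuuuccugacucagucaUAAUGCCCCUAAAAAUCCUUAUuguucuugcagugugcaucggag

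The members lie at separate loci that are built alike. In mm10, mir-193b is at chr16:13449523-13449601 and mir-365-1 at chr16:13453840-13453926, both on the plus strand and 4238 bases apart. Both lie opposite an intron of Gm15738, a long noncoding gene on the minus strand, and inside no gene annotated on their own strand. The nearest protein-coding gene upstream is Mrtfb, which encodes a coactivator of serum response factor and ends 31993 bases before mir-193b. mir-365-2 is at chr11:79726400-79726511 on the plus strand, 14365 bases after mir-193a at chr11:79711969-79712034. Neither of these overlaps another annotated gene. The only other listed precursor within 50 kb of any of the 4 is mir-6365, 17153 bases after mir-365-1, and it had 0 counts in both libraries, below the 3 counts that a count of 0 allows.

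Sequences that could pair with the seeds are shown for 3 genes reported in the literature as targets of the pair. Runx1t1 encodes a repressor that holds back adipogenesis, Cdon a cell-surface receptor that promotes myogenesis, and Igfbp5 a binding protein for insulin-like growth factors. The motif GGCCAGT, the complement of the miR-193b-3p seed, was searched on the transcript strand of the longest annotated 3′ UTR of each gene, as was GGGCATT for miR-365-3p; the motifs are in capitals below.

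Runx1t1, miR-193b-3p, chr4:13890052-13890073, plus strand: tagtagaacacagaGGCCAGTa

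Igfbp5, miR-193b-3p, chr1:72859978-72859999, minus strand: ttcaatatatcttaGGCCAGTa

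Cdon, miR-365-3p, chr9:35505602-35505623, plus strand: aagaaagggtttgaGGGCATTt

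These were the only matches in those 3′ UTRs. GGCCAGT occurred in 22.9% and GGGCATT in 19.2% of the 1987 genes whose longest 3′ UTR has 3000 to 5000 bases, the length class of these 3. A match describes letters in a window and does not show binding, and messenger RNA was not measured in these libraries.

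The HC library held 31198050 precursor counts and the NC library 43848576. Levels are given as CPM, which are counts per 1000000 of a library size adjusted by TMM (trimmed mean of M-values), a method that takes most precursors to be equal. The 222 precursors that averaged 10 CPM or more over both libraries were compared, and all 3 members and mir-193a were among them. Every interval is a 95% interval of counting error only, since no molecular identifiers were used to tell copied reads from separate molecules. In bulk tissue, fewer cells of a type and less RNA per cell cannot be told apart.

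miR-193b was a modestly abundant miRNA of ischemic muscle and nearly equal in both libraries. It had 1895 counts in HC and 2623 in NC, or 58.0 CPM (exact Poisson interval 55.4 to 60.7) in HC and 62.7 CPM (60.3 to 65.1) in NC. It took rank 147 of the 663 precursors with counts in HC and rank 146 of 691 in NC. Its share of precursor counts was 0.00607% in HC (Clopper-Pearson bounds 0.00580 and 0.00635%) and 0.00598% in NC (bounds 0.00576 and 0.00622%), and the intervals of the shares overlapped. The log2 fold of HC over NC under TMM was -0.11 (exact conditional interval -0.20 to -0.03), a 1.08-fold difference.

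Each miR-365 hairpin had more counts than mir-193b in both libraries. Whether reads of miR-365-3p were listed under both hairpins or divided between them was not tested, and how far miR-365 as a whole exceeded miR-193b depends on it. Some numbered copies at separate loci had equal counts: mir-124-1 and mir-124-2 each had 22 in HC and 34 in NC. The same held for mir-344d-1, mir-344d-2 and mir-344d-3, each with 6 in HC and 10 in NC. mir-467a-2 and mir-467a-4 each had 47 in HC and 89 in NC. Not all copies were equal: mir-467a-1 had 0 in both libraries. mir-365-1 had 2459 counts in HC and 2950 in NC, or 75.2 CPM (72.3 to 78.3) in HC and 70.5 CPM (68.0 to 73.1) in NC. mir-365-2 had 2594 counts in HC and 3153 in NC, or 79.4 CPM (76.3 to 82.5) in HC and 75.3 CPM (72.7 to 78.0) in NC. The log2 folds were 0.09 (0.02 to 0.17) for mir-365-1 and 0.08 for mir-365-2, whose interval ran from just below 0 to 0.15. Summed over the copies, which counts a read more than once if both hairpins list it, the log2 fold was 0.08 (0.03 to 0.14). This interval takes all summed counts as separate reads, so it is too narrow if the hairpins list the same reads.

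**Figure D1:**
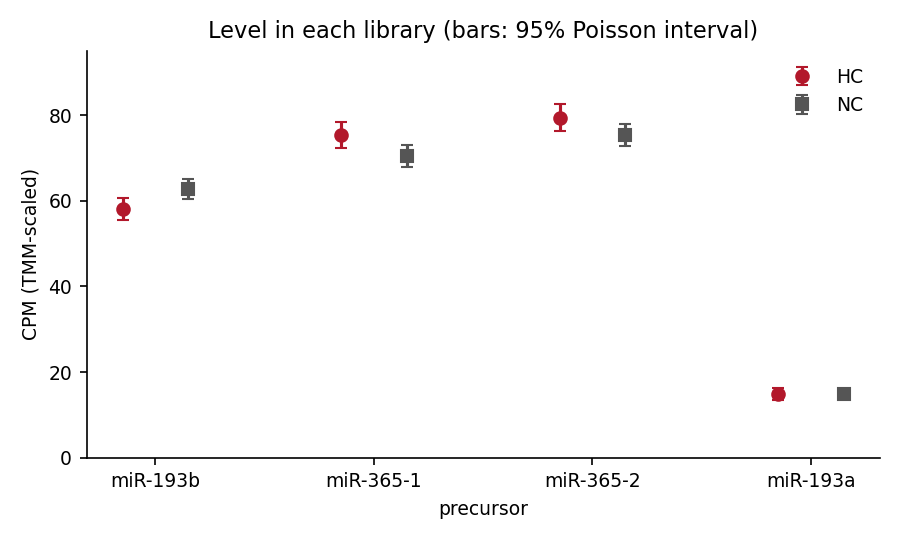
Level of each precursor in CPM (TMM-scaled, linear axis from 0) in the HC library (circles) and the NC library (squares), 1 library each, with 95% Poisson intervals of counting error. miR-193b lies at 58.0 CPM in HC and 62.7 in NC, both miR-365 copies between 70.5 and 79.4, and miR-193a at 14.9 in both.

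mir-193a, the seed mate of miR-193b and neighbour of mir-365-2, was the least abundant of the 4. It had 14.9 CPM in each library (13.6 to 16.3 in HC and 13.7 to 16.1 in NC), with a log2 fold of 0.00 (-0.17 to 0.17). Of the reads counted for either miR-193 precursor, mir-193b took 79.6% in HC (Clopper-Pearson bounds 77.9 and 81.2%) and 80.8% in NC (bounds 79.4 and 82.2%). The order of the levels was the same in both libraries: mir-365-2, mir-365-1, mir-193b and mir-193a from high to low. The intervals of the miR-365 copies overlapped within each library, whereas those of mir-193b lay below both copies and those of mir-193a below mir-193b. Small RNA reads cover a mature miRNA, not the hairpin, so these levels were not divided by length. Per hairpin base the order was mir-365-1 (28.3 counts per base in HC, 33.9 in NC), mir-193b (24.0 and 33.2) and mir-365-2 (23.2 and 28.2), since the hairpins have 87, 79 and 112 bases.

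The near-equal counts of the miR-365 copies match what other copies in these files show. Of 33 pairs of precursors at separate loci that share a mature sequence or are numbered as copies, and that reach 100 counts, 28 had counts within 10% of each other in both libraries. mir-365-2 exceeded mir-365-1 by 4.13 CPM in HC and 4.85 CPM in NC, which is 5.20% of its own counts in HC and 6.44% in NC. The ratio of mir-365-2 to mir-365-1 was 1.05 in HC (0.998 to 1.12) and 1.07 in NC (1.02 to 1.12), so the interval left out equality in NC only. These intervals take the reads of both copies as separate. Whether the excess comes from the 5p arm was not tested, because counts of a hairpin sum both arms. Given that copies can list the same reads, these counts do not say which of the loci on chromosomes 16 and 11 was transcribed.

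None of the 3 members reached a 2-fold or a 1.5-fold difference. Of all compared precursors, 2.25% passed the 2-fold limit and 7.21% the 1.5-fold limit, in either direction and with a counting interval that left out 0. By counting intervals alone, 1 member lay below 0, against 43.7% of all compared precursors, 1 lay above 0, against 39.6%, and 1 reached 0, against 16.7%. Of the compared precursors, 34.2% had a fold closer to 0 than mir-193b, 30.2% closer than mir-365-1 and 23.9% closer than mir-365-2. The members thus sat well inside the central 90% of log2 folds, which ran from -0.47 to 0.47.

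**Figure D2:**
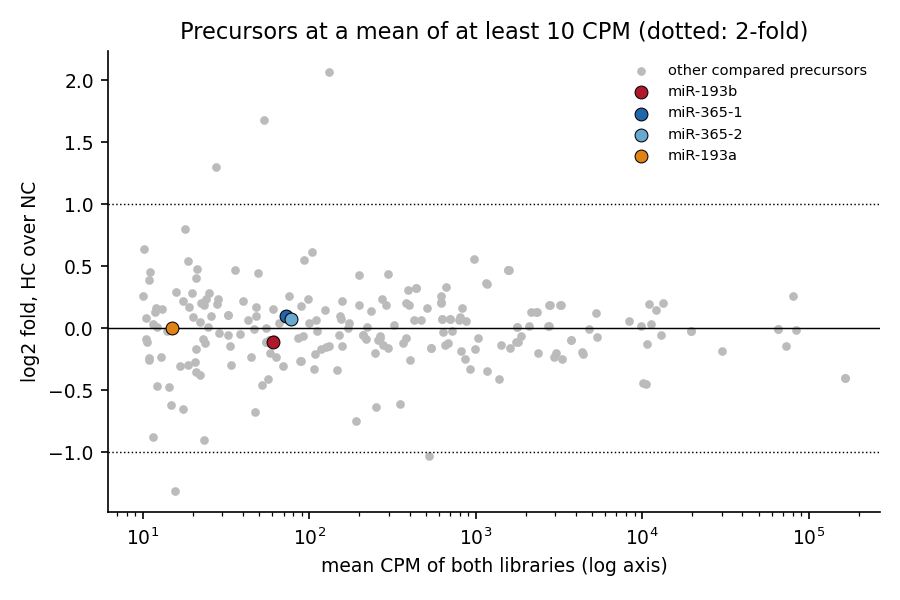
Log2 fold of HC over NC against mean CPM (log axis) for the 222 compared precursors, 1 point per precursor, with dotted lines at 2-fold. miR-193b at -0.11, the miR-365 copies at 0.09 and 0.08 and miR-193a at 0.00 lie within the dense band around 0.

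The direction of each member depended on how the libraries were scaled. With plain totals of precursor counts, which raise every log2 fold by 0.13, mir-193b lay at 0.02 (-0.06 to 0.11), mir-365-1 at 0.23 (0.15 to 0.31) and mir-365-2 at 0.21 (0.13 to 0.28). With the authors' own denominators, which lower every log2 fold by 0.11, mir-193b lay at -0.22 (-0.31 to -0.14), mir-365-1 at -0.02 (-0.10 to 0.06) and mir-365-2 at -0.04 (-0.11 to 0.04). No member kept its interval on 1 side of 0 under these 3 scalings, as was the case for 54.1% of all compared precursors. No direction between HC and NC is therefore given for any member.

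**Figure D3:**
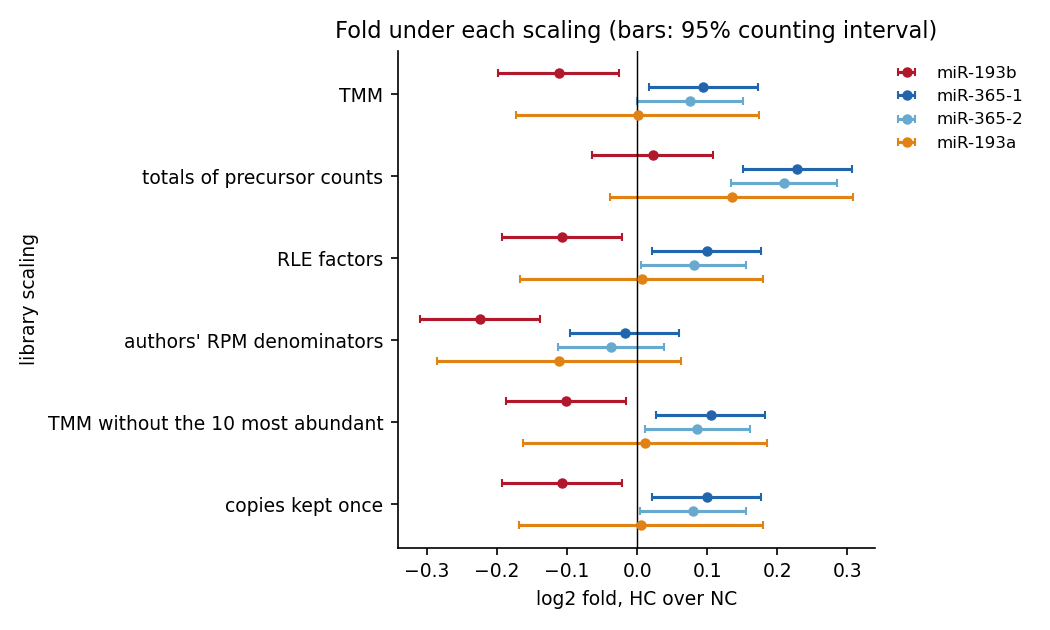
Log2 fold of HC over NC (linear axis) for miR-193b, both miR-365 copies and miR-193a under 6 library scalings, with 95% counting intervals. The spacing between the precursors is the same in every row, while the group moves as a whole, so that miR-193b crosses 0 with plain totals and miR-365 with the authors' RPM denominators.

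The balance between the neighbours mir-193b and mir-365-1 needs no scaling between libraries, because both counts come from the same library. There were 0.771 counts of mir-193b for each count of mir-365-1 in HC (0.725 to 0.819) and 0.889 in NC (0.843 to 0.937). The log2 ratio was -0.38 in HC and -0.17 in NC, a difference of -0.21 (-0.32 to -0.09). Against mir-365-2 the difference was -0.19 (-0.30 to -0.07). mir-193b was thus lower relative to miR-365 in HC than in NC, with counting intervals that left out equality, in 1 library of each kind. On the chromosome 11 pair, the ratio of mir-193a to mir-365-2 was 0.187 in HC and 0.197 in NC, and the log2 difference of -0.07 had an interval of -0.26 to 0.12. The ratio of mir-193b to mir-193a was 3.90 in HC and 4.22 in NC, with a log2 difference of -0.11 (-0.31 to 0.08).

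Among neighbouring precursor pairs, a difference of this size lay near the middle of the order. The files hold 91 pairs of compared precursors on the same strand within 10 kb that neither overlap nor share a mature sequence, with pairs of copies counted once. The size of the difference in log2 fold was 0.21 for mir-193b and mir-365-1 and had a median of 0.18 over the 90 other pairs, of which 47 differed by less and 43 by more. The others ranged from 0.00 for mir-29b-2 and mir-29c to 1.44 for mir-376b and mir-381 of the imprinted Dlk1-Dio3 region. Pairs of 1 cluster share members, and the Dlk1-Dio3 region gives many of the pairs, among them most of those that differed by more. The place in the order therefore rests partly on that region, and these values are a description.

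**Figure D4:**
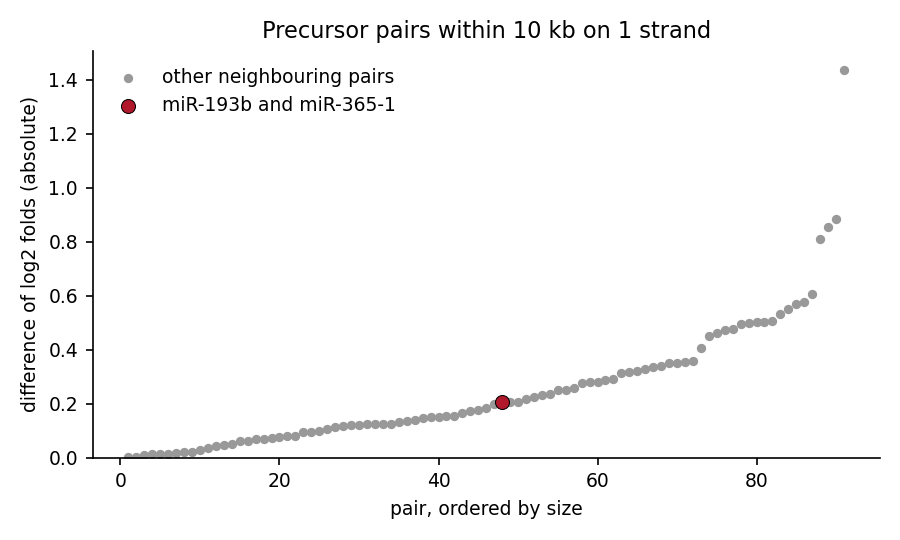
Absolute difference of log2 folds (HC over NC) within each of 91 neighbouring precursor pairs, 1 point per pair, ordered by size on the horizontal axis. The pair of miR-193b and miR-365-1, at 0.21, is near the middle of the order, at place 48.

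By level in both libraries, the precursors most like the members were miRNAs of other loci. Likeness was the distance in log2 CPM over the 2 libraries. Nearest to mir-193b were mir-872 (58.9 CPM in HC, 63.8 in NC, distance 0.03), mir-300 (59.5 and 63.3 CPM, 0.04) and mir-203, a keratinocyte miRNA (54.3 and 62.4 CPM, 0.09). Nearest to mir-365-1 outside the members were mir-320 (82.1 CPM in HC, 68.6 in NC, distance 0.13), mir-361 (66.9 and 65.0 CPM, 0.21) and mir-222, which is abundant in endothelium (62.1 and 76.8 CPM, 0.30). With 2 libraries, likeness in level does not measure a shared pattern.

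Under TMM, miRNAs with a reported role in brown or white adipocytes lay on both sides of 0. The list held 31 precursors, of which 29 were compared, with the members and mir-193a included in it. None reached 2-fold, against 2.25% of all compared precursors, and 1 reached 1.5-fold, against 7.21%. This was mir-182, which has been tied to brown fat in mice, at 277.5 CPM in HC and 423.6 in NC (log2 fold -0.61, -0.65 to -0.57). Its fold was not particular to the list: its neighbour mir-183, outside the list, lay at -0.68, and the compared epithelial markers given below had a median of -0.62. That median includes mir-429, which met the level for comparison only through NC. Intervals under TMM lay above 0 for 8 of the 29, against 39.6% of all compared precursors, and below 0 for 16, against 43.7%, and the median was -0.05, beside 0.00 over all compared precursors. Under all 3 scalings just given, 4 precursors lay higher in HC, against 24.8% of all compared precursors, and 3 lay lower, against 21.2%. For the other 22 no direction held. The 4 higher ones were both mir-196a copies, mir-196b and mir-22, and the 3 lower ones were mir-182, mir-143 and mir-378b. miR-196a promotes brown-like cells in mouse white fat by repressing Hoxc8; its precursors had 409.9 and 539.6 CPM in HC and 356.7 and 482.2 CPM in NC, with log2 folds of 0.20 and 0.16.

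Other miRNAs with a reported role in the brown programme, beside miR-182 and miR-196a, are given with their values. miR-455, which promotes brown adipocyte differentiation in mice, was under the level for comparison, with 8.93 CPM in HC and 10.2 in NC (log2 fold -0.20, -0.42 to 0.02). miR-30b, which has been tied to thermogenic genes, lay at -0.12, and miR-378a, from an intron of Ppargc1b, at -0.13. miR-328 lay at 0.04 and its interval held 0. miR-203, which is in the adipocyte list and also among the epithelial markers given below, lay at -0.20 (-0.29 to -0.11). Of those that repress the programme, miR-27b, which targets Prdm16, lay at -0.05, and miR-155, which targets Cebpb, at -0.05 with an interval that held 0. miR-34a was also below the level for comparison, with 7.31 CPM in HC and 8.03 in NC. None of these kept a direction under all 3 scalings.

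miRNAs of the muscle side of the fate choice were abundant, as were those of the adipocyte list, few of which are particular to adipocytes. With copies counted once, the compared precursors of the myogenic list summed to 210888 CPM in HC and 256683 in NC, and those of the adipocyte list to 207728 CPM in HC and 202635 in NC, most of it from miR-486 and miR-133a in the first list and from miR-22 and miR-143 in the second. miR-133a, which represses Prdm16 in mouse muscle and brown fat precursors, had 65127 CPM in HC and 65383 in NC from mir-133a-1, against 58.0 and 62.7 CPM of mir-193b. Its log2 fold was -0.01. miR-206, a miRNA of myoblasts and regenerating fibres, was close to miR-193b in level, with 55.6 CPM in HC and 59.3 in NC (log2 fold -0.09). Of 12 precursors in the myogenic list, 11 were compared, and mir-208a was not, with 6 counts in HC and 10 in NC. Their median log2 fold was -0.01, their range -0.40 to 0.63, and none reached 2-fold, against 2.25% of all compared precursors. Under all 3 scalings, 5 of the 11 lay higher in HC, against 24.8% of all compared precursors, and 3 lower, against 21.2%. The 5 were 3 inseparable precursors of miR-1 at 0.47 each, mir-208b at 0.55 and mir-499 at 0.63. Of the 11, mir-499 alone passed 1.5-fold, against 7.21% of all compared precursors. It had 12.4 CPM in HC and 7.98 in NC. It thus met the mean of 10 CPM only through HC, where it is higher, and its place in these counts depends on that filter. The 3 lower ones were both copies of miR-486 at -0.40 and mir-133b at -0.20, so the 8 precursors stand for 5 miRNAs.

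**Figure D5:**
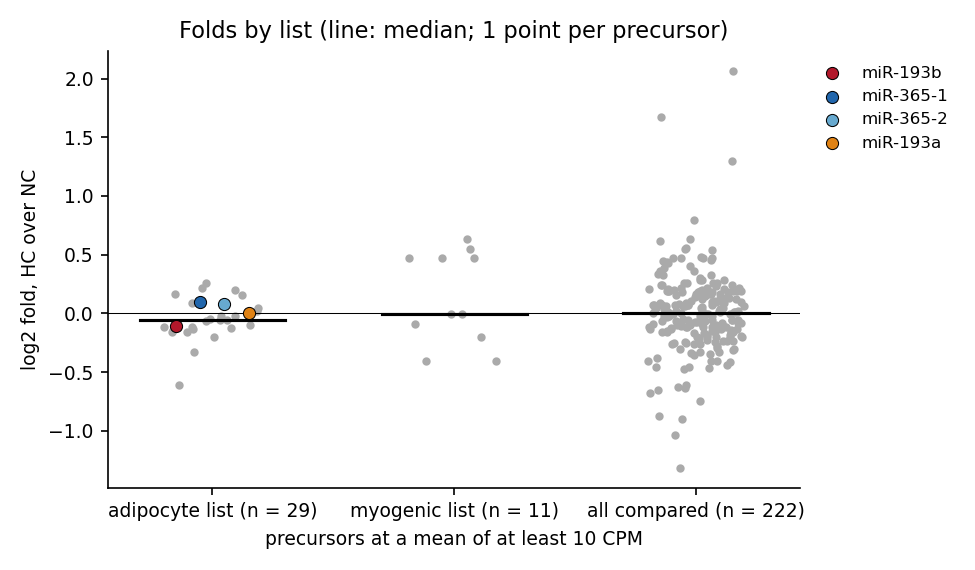
Log2 fold of HC over NC for compared precursors of the adipocyte list (29), the myogenic list (11) and all compared precursors (222), with a line at each median and 1 point per precursor. The members and miR-193a lie between -0.11 and 0.09, inside the spread of each list.

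Markers of other cell types that the tissue could hold were measured in the same libraries. Of 7 epithelial precursors, 5 were compared, with a summed level of 131.4 CPM in HC and 176.5 in NC, and all 5 intervals lay below 0 under TMM, against 43.7% of all compared precursors. Under all 3 scalings 4 of the 5 did, against 21.2% of all compared precursors, and mir-203 did not. Under TMM, 3 of the 5 passed 1.5-fold, against 7.21% of all compared precursors: mir-200b, mir-205 and mir-429. Of these, mir-429 had 8.14 CPM in HC and 14.9 in NC. It thus met the mean of 10 CPM only through NC, where it is higher. Each of these epithelial counts includes mir-429 and so depends on that filter. None of the 7 was at 0 in either library. The single levels ran from 1.68 to 54.3 CPM in HC and from 3.03 to 62.4 CPM in NC. The 4 leukocyte precursors summed to 2303 CPM in HC and 2298 in NC, most of it from mir-142a with 1784 and 1771 CPM. mir-142a lay at 0.01 and mir-155, which is also in the adipocyte list, at -0.05, both with intervals that held 0. mir-223 of myeloid cells lay at 0.44 and mir-150 of lymphocytes at -0.75. Under all 3 scalings mir-223 lay higher in HC, against 24.8% of all compared precursors, and mir-150 lower, against 21.2%. Of these 4, mir-150 alone passed 1.5-fold, against 7.21% of all compared precursors. The erythroid mir-144 and mir-451a summed to 608.8 CPM in HC and 467.9 in NC, with log2 folds of 0.62 and 0.32. Both lay higher in HC under all 3 scalings, against 24.8% of all compared precursors. Of the pair, mir-144 alone passed 1.5-fold, against 7.21%. The endothelial mir-126a had 11407 CPM in HC and 11144 in NC, and kept no direction under all 3 scalings. The part of these cells in the levels of miR-193b and miR-365 was not tested.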

How the data were processed

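Small RNA of 1 HC and 1 NC library was extracted with Trizol and mirVana and made into TruSeq libraries, per the labels' protocols. CASAVA 1.8.2, TopHat2 2.0.10, HTSeq 0.5.4 and mm10 are named, without roles, per the submitters' processing notes; not given in the sources used here were adapter trimming, strand use and the handling of multi-mapped reads. Each deposited file holds raw counts per precursor and 5 summary rows, which were left out of library sizes (55.9% of counts in HC, 44.1% in NC, lay outside all precursors). The deposited RPM column is a signal, a constant multiple of the count; it sums to over 1e6, and its denominators (27222821 in HC, 32252170 in NC) served only as an alternative scaling.

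TMM sizes came from edgeR 4.0.16 in R 4.3.3 without any edgeR test; intervals are exact conditional binomial, Clopper-Pearson or Poisson (scipy 1.17.1). No p-value was computed, since each group has 1 library, and a rule of size (at least 2-fold, mean of at least 10 CPM, interval off equality) replaced it. The 2-fold rule was tested on simulated counts with counting error only, in which some precursors were changed by more than 2-fold. That simulation held no spread between libraries, no reads shared by copies and no folds as small as those of the members. Copies are precursors that overlap, share a mature sequence or are numbered as copies, with counts within 10%. Named miRNAs are the members, mir-193a, listed precursors within 50 kb, the 3 nearest in level to mir-193b and mir-365-1, and list members that passed a fold limit or have a reported brown fat role. Members and lists were chosen with earlier results of these data known. Alternatives were 5 other scalings, other filters and other treatments of copies. Annotation is GENCODE M21 (GRCm38).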

Additional observations from a re-analysis of the deposited data

Results flagged for a closer look

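Counts outside all precursors made up 55.9% of the listed counts in HC, above the 44.1% in NC, the control. They entered no comparison of miR-193b or miR-365.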

How the results depend on the processing

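The difference between HC and NC in the ratio of mir-193b to mir-365-1 does not depend on library scaling; with mir-365-2 as the copy, an alternative chosen after seeing the data, it was -0.19. The folds of the members kept their direction with RLE factors, with TMM without the 10 most abundant precursors and with copies kept once. With plain totals mir-193b turned to 0.022, and mir-365-1 and mir-365-2 moved to 0.23 and 0.21. With the authors' denominators mir-365-1 turned to -0.018, mir-365-2 lay at -0.037 and mir-193b at -0.22. These shifts are the change in scaling itself. With copies kept once, which shrinks the total, the shares were 0.00860% in HC and 0.00869% in NC for mir-193b and 0.0112% and 0.00977% for mir-365-1.

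With plain totals the median was 0.081 for the adipocyte list and 0.13 for the myogenic list, and under the authors' denominators it was -0.17 and -0.12. The adipocyte median was -0.043 with TMM without the 10 most abundant. The myogenic median was 0.0051 with TMM without the 10 most abundant, -0.00043 with RLE factors and -0.00081 with copies kept once. With the filter lowered to 1 CPM, 13 precursors passed 2-fold, and 30 did with no filter, against 5. Among the members and mir-193a, depth limits mir-193a most, at 14.9 CPM in each library. No paired analysis was possible because each group holds 1 library and no result comes from a test.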
